A study of Mus musculus with 27 samples.

Results

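The genes described here were 9 transcription factors and germline factors that mark naive pluripotency in the mouse: Nanog, Klf2, Klf4, Klf5, Esrrb, Tfcp2l1, Zfp42, Prdm14 and Dppa3. They were given by name and matched by symbol to the Ensembl identifiers of the gene tables, and all 9 were found among 48795 annotated genes. Their RNA levels were followed in 27 bulk RNA-seq libraries (9 groups, n = 3 libraries each) taken along a culture protocol that led mouse embryonic stem cells (ESCs) through mesoderm toward gonadal supporting cells.

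All cells in all groups descended from XY ESCs that carried the R26-rtTA allele, a doxycycline-dependent transactivator at the Rosa26 locus, and TESCO-CFP, a fluorescent reporter specific to Sertoli cells. The line is a single clone, so every group shares its genotype. The ESC group was the undifferentiated line, and the labels do not say in which of the culture media it was harvested. Epiblast-like cells (EpiSC) had received Activin A at 20 ng/ml and bFGF at 12 ng/ml for 60 h. Early mesoderm (M) had then received bFGF at 20 ng/ml, BMP4 at 10 ng/ml and the PI3K inhibitor LY294002 at 10 µM for 36 h. The 5 intermediate mesoderm media (IM1 to IM5) all held bFGF at 5 ng/ml and BMP4 at 20 ng/ml. IM1 held nothing else, IM3 added retinoic acid (RA) at 100 nM, IM2 added RA and Activin A at 10 ng/ml, IM4 added RA and CHIR99021, an inhibitor of GSK3 that activates WNT signalling, at 0.3 µM, and IM5 added all of these. Induced Sertoli-like cells (iSLC) were IM3 cells given doxycycline-inducible lentiviral Nr5a1 and Dmrt1 and sorted for the CFP reporter. By the study's methods their medium held EGF, FSH, FGF9, prostaglandin D2, testosterone and Activin A, the last at a higher dose than in IM2 and IM5. The vectors, the medium and the sort were all particular to iSLCs, and their effects cannot be told apart.

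In the mouse, naive pluripotency is the state of the preimplantation epiblast and of ESCs held with LIF and kinase inhibitors. A network of factors keeps it: LIF acts through STAT3 on Klf4 and Tfcp2l1, WNT signalling relieves repression of Esrrb by TCF7L1, and Nanog sits downstream of several of these inputs. When ESCs leave the state for formative and then primed epiblast, the naive factors are lost while Pou5f1 is kept. Several of the 9 genes are also used elsewhere in the body: Klf2 in endothelium, Klf4 in epithelium and endothelium, Klf5 in epithelium, Tfcp2l1 in the collecting duct of the kidney, and Prdm14 and Dppa3 in primordial germ cells.

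The promoters of Nanog and Zfp42, 2 members that fell at each step to M and fell further in the IM media, and of Klf2, which fell to M and was then higher in 3 of the 5 IM media, are shown because these genes parted from each other after the mesoderm stage. Each sequence is the 200 bases before the more upstream of the RefSeq start and the annotated gene start, read 5′ to 3′ on the gene's strand from the RefSeq promoters of build GRCm38.p6. Capitals mark matches to any of 7 motifs searched on both strands: an octamer core (TTTGCAT), a SOX core (ACAATG), a KLF box (CCACNCCC), an ESRRB site (AAGGTCA), a STAT site (TTCNNNGAA), a MEF2 core (TAAATTTA) and a TATA box (TATAAA). Nanog lies at chr6:122707289-122707488 on the plus strand, Zfp42 at chr8:43307010-43307209 on the minus strand and Klf2 at chr8:72318833-72319032 on the plus strand.
Nanog: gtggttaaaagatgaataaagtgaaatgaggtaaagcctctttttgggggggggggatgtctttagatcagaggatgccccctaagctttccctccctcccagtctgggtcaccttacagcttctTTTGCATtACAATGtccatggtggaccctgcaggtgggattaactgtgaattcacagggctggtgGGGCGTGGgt
Zfp42: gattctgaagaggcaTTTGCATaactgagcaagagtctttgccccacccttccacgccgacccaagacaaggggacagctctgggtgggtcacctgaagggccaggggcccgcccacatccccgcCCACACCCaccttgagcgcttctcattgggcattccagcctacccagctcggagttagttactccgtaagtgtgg
Klf2: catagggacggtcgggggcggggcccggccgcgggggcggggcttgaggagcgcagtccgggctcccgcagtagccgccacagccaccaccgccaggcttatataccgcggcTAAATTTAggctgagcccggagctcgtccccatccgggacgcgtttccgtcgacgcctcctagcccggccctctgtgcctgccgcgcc

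The Nanog window held the octamer core 75 to 69 bases before the start, with the SOX core 67 to 62 bases before it, and a KLF box on the opposite strand. The Zfp42 window held the octamer core 185 to 179 bases before the start and 1 KLF box. In the Klf2 window the MEF2 core, which reads the same on both strands, was the only match. Over 32851 promoter windows of this length, the octamer core was found in 3.28%, the SOX core in 8.58%, the KLF box in 13.8% and the MEF2 core in 0.356%. RefSeq promoters were at hand for 6 of the 9 members. Of the other windows read, Tfcp2l1 held 2 KLF boxes and a TATA box, Esrrb a STAT site, and Klf4 none of the 7 motifs. These are matches of letters and not measured binding.

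In GRCm38, Nanog (ENSMUSG00000012396, chr6:122707489-122714633) and Dppa3 (ENSMUSG00000046323, chr6:122626410-122630272) are neighbours on chromosome 6. Klf2 (ENSMUSG00000055148) lies at chr8:72319033-72321656, Zfp42 (ENSMUSG00000051176) at chr8:43295063-43306980 and Klf4 (ENSMUSG00000003032) at chr4:55527143-55532466. Klf5 (ENSMUSG00000005148) lies at chr14:99298691-99315036 and Esrrb (ENSMUSG00000021255) at chr12:86361117-86521628. Tfcp2l1 (ENSMUSG00000026380) lies at chr1:118627945-118685168 and Prdm14 (ENSMUSG00000042414) at chr1:13113457-13127163. All are protein-coding genes, and values cover whole genes. Copies that share 75-base stretches with a member could divert reads, but the 3 copies listed in the tables held few counts: the small RNA gene Gm23497, which shares such stretches with Tfcp2l1, held at most 1.53 counts in any library (up to 23.96 TPM on the scale per length), the pseudogene Nanog-ps1 held at most 1 count in any library and Dppa3-ps at most 14.2 counts, against 1022 to 4271 counts for Dppa3 itself in ESC and EpiSC. The pseudogene Zfp42-ps1, which shares 4.36% of the 75-base stretches of Zfp42, was not analysed here.

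Each library held between 35923040 and 84876603 estimated counts. The study describes the libraries of a group as biological replicates, and the p-values measure the spread between them. The stage labels were checked against marker genes. The primed epiblast ligand Fgf5 was at 2.88 to 3.73 TPM in ESC and 117 to 121 TPM in EpiSC. The mesoderm factor Mesp1 averaged 86.6 TPM in M against at most 2.13 TPM as the mean of any other group. Tbx6 likewise averaged 29.0 TPM in M and 0.97 TPM in EpiSC. The mesoderm markers T and Eomes were already at means of 238 and 95.1 TPM in EpiSC, against 502 and 158 TPM in M. Mean Gata4 and Osr1 were above ESC in every IM medium, and mean Wt1 in all but IM1 (6.39 against 11.9 TPM). Against M, mean Osr1 and Wt1 were higher in every IM medium. Gata4 did not set all of them apart from M, where it averaged 150 TPM. It averaged 75.8 TPM in IM1, 141 TPM in IM2 and 96.3 TPM in IM5, and 340 and 253 TPM in IM3 and IM4. Nr5a1 and Dmrt1 averaged 93.8 and 213 TPM in iSLC against 0.09 and 0.45 TPM in IM3. The vectors supplied both, so their levels say nothing of cell identity. Sox9, a Sertoli marker, averaged 24.8 TPM in iSLC and 40.0 TPM in IM3. Amh, a defining product of fetal Sertoli cells, was at 0.56 ± 0.078 TPM (SD, n = 3) in iSLC and 0.44 ± 0.12 TPM in IM3. Levels are given as TPM (a share of all transcripts in a library, corrected for transcript length), as deposited. Differences are log2 fold changes from edgeR's quasi-likelihood test on the estimated counts, each with its standard error (SE) and a p-value adjusted over 20839 genes. A gene was called changed when its adjusted p was at most 0.01, its fold change at least 2 and its mean normalized count at least 100 both over all libraries of the fit and in 1 or more of the groups compared, and "rose" and "fell" are used of called genes alone.

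In ESC the 9 genes together summed to 850 to 871 TPM. They summed to 376 to 390 TPM in EpiSC and to 56.9 to 66.6 TPM in M. In the IM media the sums ran from 24.6 TPM in IM4 to 68.8 TPM in IM1, and in iSLC they were 34.1 to 36.8 TPM. Being bulk levels, these cannot tell fewer cells of a type from less RNA per cell. All 9 members were called between EpiSC and ESC, 8 lower and 1 (Dppa3) higher, where 8.07% of all genes tested were called. From EpiSC to M, 6 members fell and none rose, with 14.5% of all genes called.

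**Figure D1:**
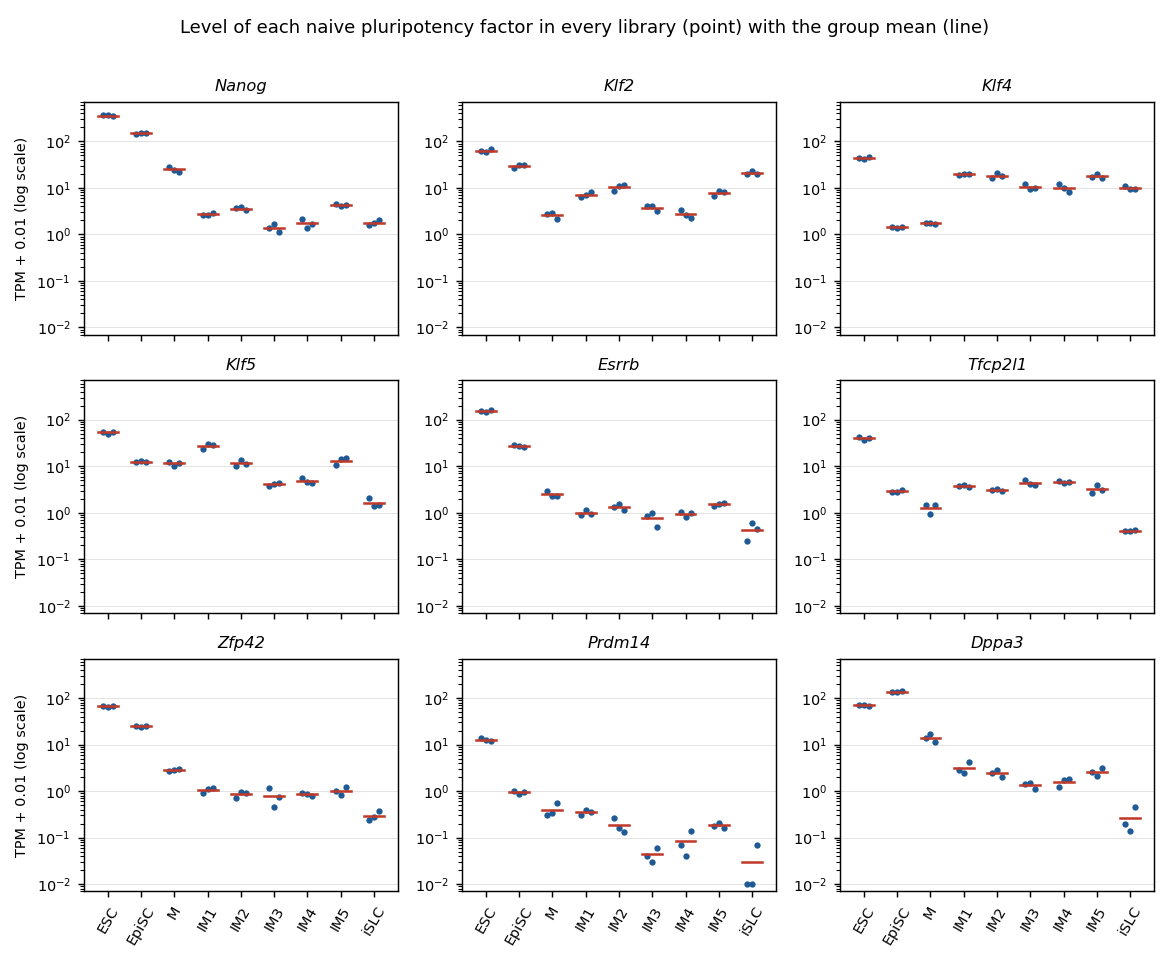
TPM of each member in every library (points, 3 per group) with the group mean (line), plotted as TPM + 0.01 on a log axis, for the 9 groups in protocol order. Nanog, Esrrb and Zfp42 step down from ESC to M and stay low, Dppa3 is highest in EpiSC, and Klf4 returns to between 8.11 and 21.2 TPM in the IM media after 1.36 to 1.79 TPM in EpiSC and M.

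From M to the 5 IM media the members parted. IM1 against M called 8 of 9 members, 4 higher and 4 lower (15.7% of all genes were called). IM2 against M called 6, with 3 higher and 3 lower (16.5% of all genes), and IM5 against M likewise called 6, with 3 higher and 3 lower (16.0% of all genes). IM3 against M called 7, with 2 higher and 5 lower (14.9% of all genes), as did IM4 against M (14.8% of all genes). Klf4 and Tfcp2l1 rose in each of the 5 IM media, while Nanog, Zfp42 and Dppa3 fell in each of them. Over the 9 members the median log2 fold change ran from -1.68 in IM3 to -0.31 in IM1, beside medians of 0.00 to 0.01 over all genes tested. The IM1 median was the value of Prdm14, which was under the count minimum and not called, so it shows no net fall of the set there. These comparisons share the M libraries.

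**Figure D2:**
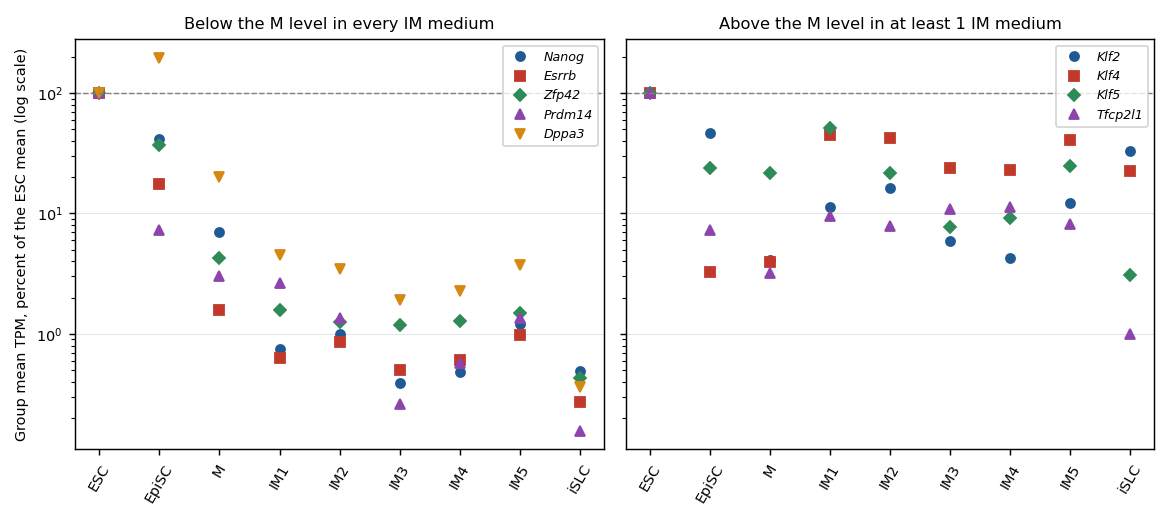
Group mean TPM as a percent of the ESC mean (log axis; dashed line at 100%) for the 5 members whose mean was below the M level in every IM medium (left) and the 4 whose mean was above it in at least 1 IM medium (right). On the left no member is above 4.50% of its ESC level in an IM medium; on the right Klf4 stands at 23.0 to 44.9% in the IM media and Klf2 at 32.8% in iSLC.

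Nanog, the homeodomain factor that stabilises self-renewal, had the highest TPM of the members in ESC. It was at 361, 368 and 345 TPM in the 3 ESC libraries, at 145, 148 and 151 TPM in EpiSC, and at 28.3, 24.2 and 22.3 TPM in M. The groups did not overlap, and Nanog fell by 1.23 ± 0.08 (log2, SE; adjusted p = 5.4e-13) from ESC to EpiSC and by 2.64 ± 0.09 (adjusted p = 1.08e-19) from EpiSC to M. EpiSC cells thus held 41.4% of the ESC level and M cells 6.97%. In the IM media Nanog was between 1.13 TPM in an IM3 library and 4.52 TPM in an IM5 library. These levels were low but not at the detection limit: each IM library held 54 to 414 Nanog counts. Nanog was called lower than M in each medium, by 2.62 (IM5) to 4.36 (IM3) on the log2 scale. In iSLC it was at 1.57, 1.71 and 2.02 TPM, which overlapped IM3 at 1.38, 1.66 and 1.13 TPM and IM4 at 2.10, 1.39 and 1.65 TPM.

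Esrrb, an orphan nuclear receptor that can stand in for Nanog in self-renewal, fell more steeply. Its libraries were at 155, 147 and 162 TPM in ESC, 28.3, 27.3 and 25.9 TPM in EpiSC, and 2.86, 2.25 and 2.26 TPM in M. No group overlapped its neighbour. The log2 fold changes were -2.55 ± 0.08 (adjusted p = 1.52e-19) for EpiSC against ESC and -3.60 ± 0.09 (adjusted p = 1.18e-21) for M against EpiSC. Thereafter Esrrb ranged from 0.49 to 1.61 TPM over the IM media. It was called lower than M in IM1, IM3 and IM4, while in IM2 and IM5 its log2 differences of -0.88 ± 0.12 and -0.65 ± 0.11 were under the fold minimum. In iSLC it was at 0.24, 0.58 and 0.44 TPM.

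Zfp42, also known as Rex1, is a zinc finger gene widely used as a marker whose loss tracks exit from the naive state. It was at 68.0, 64.7 and 66.7 TPM in ESC, 25.2, 24.2 and 24.9 TPM in EpiSC and 2.68, 2.77 and 3.03 TPM in M, with no overlap. It fell by 1.38 ± 0.10 (adjusted p = 5.61e-12) and then by 3.20 ± 0.12 on the log2 scale (adjusted p = 1.93e-18). In the IM media it lay between 0.45 and 1.20 TPM, and each medium overlapped the next in the order of their levels. It was called lower than M in all 5, except that the call in IM3 (-1.97) was lost in a fit of those groups alone, where its fold change and adjusted p still passed but the count minimum was not met. In iSLC it was at 0.23, 0.26 and 0.37 TPM, with 14 to 21 counts per library.

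Tfcp2l1, a grainyhead family factor that carries the LIF signal to the network, took a different course. It was at 41.9, 36.4 and 40.2 TPM in ESC and already at 2.84, 2.72 and 3.13 TPM in EpiSC, a log2 fold change of -3.78 ± 0.10 (adjusted p = 1.1e-20). In M it was at 1.44, 0.91 and 1.47 TPM. All 5 IM media then held more than M, from 2.63 TPM in an IM5 library to 4.97 TPM in an IM3 library, without overlap. The rises over M were 1.37 ± 0.11 in IM1, 1.11 ± 0.11 in IM2, 1.53 ± 0.11 in IM3, 1.65 ± 0.11 in IM4 and 1.21 ± 0.11 in IM5 on the log2 scale, all called. The smallest of these, in IM2, was 0.95 without M replicate 2, under the fold minimum. The IM media reached 7.82 to 11.4% of the ESC level. In iSLC Tfcp2l1 was at 0.39, 0.39 and 0.41 TPM, below every other library, and it fell by 3.41 ± 0.13 from IM3 (adjusted p = 1.11e-18).

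Klf2, Klf4 and Klf5 encode Krüppel-like zinc finger factors that can replace one another in ESC self-renewal, and in ESC they stood at similar levels of 63.4 ± 4.8, 43.6 ± 2.8 and 53.2 ± 3.4 TPM (SD, n = 3). Their courses after ESC differed. Klf4 was at 43.2, 41.0 and 46.5 TPM in ESC and 1.42, 1.36 and 1.46 TPM in EpiSC. Its log2 fold change of -4.90 ± 0.12 (adjusted p = 1.53e-21) was the steepest of the 9 members at this step. M stayed low at 1.79, 1.72 and 1.64 TPM. Klf4 was then at 19.1, 20.2 and 19.4 TPM in IM1, 16.0, 21.2 and 17.7 TPM in IM2, and 17.2, 19.7 and 16.1 TPM in IM5. In IM3 it was at 11.9, 9.26 and 10.1 TPM and in IM4 at 12.2, 9.77 and 8.11 TPM. Every IM library was above every M library, and the rises over M ran from 2.35 ± 0.12 in IM4 to 3.36 ± 0.12 in IM1 (adjusted p = 1.72e-15 and 4.87e-19). IM1 held 44.9% of the ESC level. IM3, IM4 and iSLC (10.7, 9.63 and 9.33 TPM) overlapped.

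Klf5 was at 55.5, 49.2 and 54.8 TPM in ESC and 12.3, 13.2 and 12.3 TPM in EpiSC, a log2 fold change of -2.03 ± 0.11 (adjusted p = 3.9e-14). M, at 12.5, 9.89 and 11.9 TPM, overlapped EpiSC, and the log2 difference of -0.22 ± 0.12 did not pass (adjusted p = 0.0974). In IM1 it was at 23.0, 29.7 and 28.4 TPM, a rise of 1.15 ± 0.12 over M (adjusted p = 1.38e-09). IM2 and IM5, between 9.87 and 14.8 TPM, overlapped M, whereas IM3 at 3.81, 4.06 and 4.36 TPM and IM4 at 5.63, 4.51 and 4.40 TPM were below it and called. In iSLC Klf5 was at 2.03, 1.37 and 1.48 TPM, 3.06% of the ESC level.

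Klf2 was at 61.8, 59.6 and 68.7 TPM in ESC, 26.9, 30.6 and 30.4 TPM in EpiSC and 2.74, 2.93 and 2.16 TPM in M. The first log2 fold change, -1.07 ± 0.11 (adjusted p = 4.93e-09), was close to the fold minimum and was -0.9998 without EpiSC replicate 1, when the call was lost. The second was -3.56 ± 0.14 (adjusted p = 3.84e-18). Klf2 was then at 6.26, 7.20 and 8.12 TPM in IM1, 8.69, 10.8 and 11.4 TPM in IM2 and 6.61, 8.65 and 8.03 TPM in IM5, all above M and all called. IM3 (4.14, 3.99 and 3.12 TPM) and IM4 (3.31, 2.58 and 2.26 TPM) were not called against M, at log2 differences of 0.34 ± 0.16 and -0.11 ± 0.16. The Klf2 transcript is rich in G and C (61.6%), and the trend of counts with GC content differed between libraries. In each library, the median log2 deviation from the gene mean in the bottom GC quartile was subtracted from that in the top quartile. This difference was -0.36 to -0.21 in M and 0.11 to 0.24 in IM1. With an offset for GC content the log2 rises over M became 0.85 in IM1 and 0.90 in IM5, under the fold minimum, and 1.37 in IM2, still called.

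**Figure D3:**
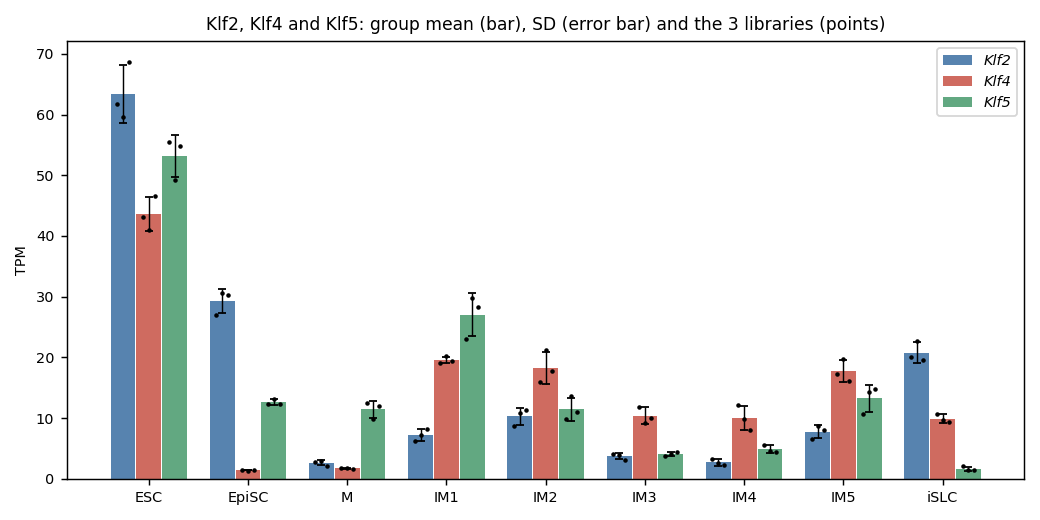
TPM of Klf2, Klf4 and Klf5 by group: bars are means, error bars SD and points the 3 libraries. Klf2 is the tallest bar in ESC, EpiSC and iSLC, Klf5 in M and IM1, and Klf4 in IM2 to IM5.

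As a share of the 3 KLF genes' summed TPM, Klf2, Klf4 and Klf5 made 39.6 ± 1.0%, 27.2 ± 0.3% and 33.2 ± 1.2% in ESC (SD, n = 3). Klf2 made 67.6 ± 1.3% in EpiSC, Klf5 72.4 ± 4.0% in M, Klf4 56.95 ± 3.24% in IM3 and Klf2 64.3 ± 3.2% in iSLC. By group mean, Klf2 led the trio in ESC, EpiSC and iSLC, Klf5 in M and IM1, and Klf4 in IM2 to IM5. The 3 genes made 37.2 ± 0.3% of the TPM of the 17 Klf genes in ESC, 7.44 ± 0.23% in M and 12.4 ± 0.6% in iSLC. Klf2 was the most abundant Klf gene in ESC, whereas Klf6, a broadly expressed member of the family, led in M and all 5 IM media and Klf3 in iSLC.

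Prdm14 encodes a PR domain protein that holds down FGF signalling and de novo DNA methylation in naive cells and is needed for germ cell specification. It was the scarcest member in ESC at 13.8, 12.5 and 11.9 TPM. EpiSC held 0.99, 0.85 and 0.92 TPM, a log2 fold change of -3.74 ± 0.21 (adjusted p = 5.34e-14), and M held 0.29, 0.32 and 0.55 TPM. Prdm14 in IM1, at 0.29, 0.38 and 0.34 TPM, overlapped M. In IM3 it was at 0.03, 0.02 and 0.05 TPM, from 1 to 3 counts per library, and in iSLC at 0, 0 and 0.06 TPM. Summed over 3 libraries, the 6 counts in IM3 were 0.226% of the ESC level after scaling for depth (95% exact interval 0.0829 to 0.493%) and the 5 counts in iSLC 0.126% (0.0409 to 0.295%), intervals that cover counting error only. From EpiSC on, its mean normalized count was at most 88.9 in every group, under the minimum of the call rule.

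Dppa3, also called Stella, encodes a maternal factor that protects the early embryo's genome from loss of methylation and marks germ cells. It was the one member higher in EpiSC than in ESC: 71.1, 71.7 and 65.9 TPM in ESC against 133, 134 and 140 TPM in EpiSC. The groups did not overlap, and the log2 rise was 1.02 ± 0.12 (adjusted p = 4.79e-08). The size sat at the fold minimum, and the rise was 0.99 with DESeq2 size factors or the DESeq2 Wald test and 1.00 or 0.99 without ESC replicate 1 or 3, when it was no longer called although its adjusted p stayed at most 1.49e-06. M held 14.0, 16.4 and 11.5 TPM, a log2 fold change of -3.38 ± 0.14 (adjusted p = 9.81e-18). The IM media held 1.10 to 4.11 TPM, and iSLC 0.19, 0.13 and 0.44 TPM with 3 to 9 counts per library.

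Dppa3 and Prdm14 are also markers of primordial germ cells, and the list of 10 such markers that holds them was counted in the same comparison. From ESC to EpiSC, 2 of the 10 rose, Dppa3 and Dnd1 (1.79 ± 0.11 on the log2 scale), a germ cell RNA-binding factor, and 3 fell, Prdm14, Tfap2c (-2.27 ± 0.08) and Kit (-1.74 ± 0.07). The summed level of the 10 was 244 to 255 TPM in ESC and 219 to 228 TPM in EpiSC, and none was at 0 in every library of a group. The sum holds Dppa3 itself, and the part of germ cells in the result was not tested.

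**Figure D4:**
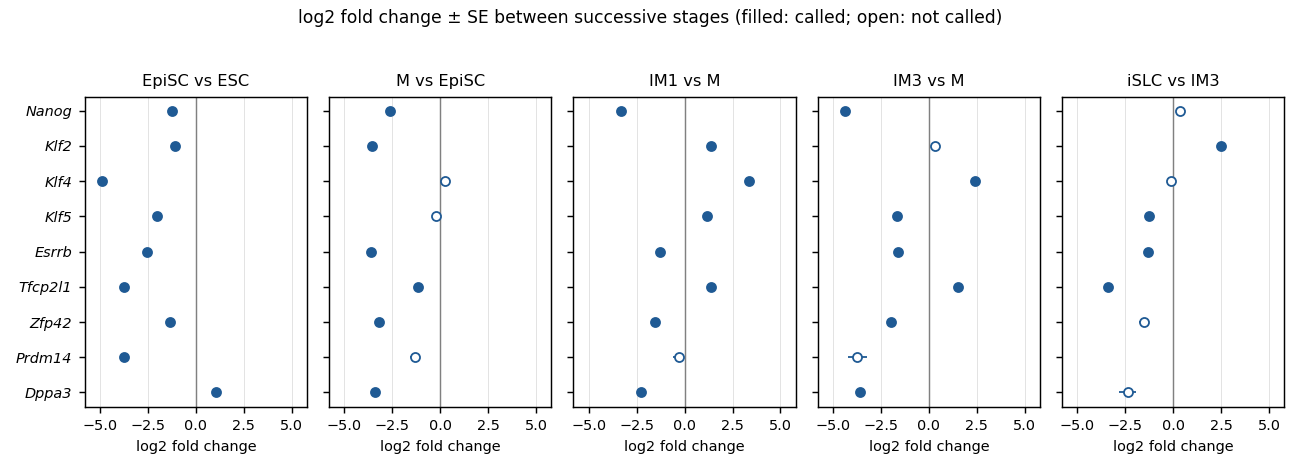
log2 fold change with SE of the 9 members between successive stages; filled points were called and open points were not. Prdm14 is left out of the last panel, where its counts were at most 5 per library in both groups; Klf2 is the only member that rose from IM3 to iSLC (2.49).

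Which factor of the medium the members followed was asked by comparing media that differed in 1 addition. RA was the addition between IM1 and IM3, and 3 of 9 members were called there, all lower with RA (6.34% of all genes were called). Klf5 fell by 2.83 ± 0.13 on the log2 scale (adjusted p = 1.25e-15), Nanog by 1.03 ± 0.15 (adjusted p = 1.98e-06) and Klf2 by 1.03 ± 0.14 (adjusted p = 7.9e-07). Of these 3, only Klf5 was well past the fold minimum. Without IM3 replicate 3 the differences were -0.93 for Nanog and -0.92 for Klf2, leaving Klf5 as the 1 member called. That of Klf2 was -0.94 without IM1 replicate 3 and -0.57 with the GC offset, and it was not called in either case. Klf4 was lower by 0.95 ± 0.10 (adjusted p = 9.95e-09), under the fold minimum, but was called at -1.04 without IM3 replicate 1. Tfcp2l1 was not called at 0.17 ± 0.10. Prdm14 had the largest difference of the 9, -3.41, and Dppa3 was lower too. The mean normalized counts of both were under the minimum in IM1 (28.7 and 71.8) and IM3 (2.65 and 27.3), so neither could be called. In all, 6 members, each lower with RA, had an adjusted p of at most 0.01.

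Activin A was the addition between IM3 and IM2, and between IM4 and IM5 in the presence of CHIR99021. In each pair 3 of 9 members rose, and these were Nanog, Klf2 and Klf5 both times, where 3.80% of all genes were called without CHIR99021 and 4.09% with it. With Activin A, Nanog went from 1.13 to 1.66 TPM in IM3 to 3.26 to 3.82 TPM in IM2, a log2 rise of 1.39 ± 0.15 (adjusted p = 2.29e-08), and its rise from IM4 to IM5 was 1.43 ± 0.13 (adjusted p = 1.34e-09). Klf2 rose by 1.49 ± 0.14 (adjusted p = 2.56e-09) and 1.58 ± 0.14 (adjusted p = 1.35e-09). Klf5 rose by 1.53 ± 0.14 (adjusted p = 9.37e-10) and 1.51 ± 0.13 (adjusted p = 3.97e-10). Within each pair, none of the libraries with Activin A overlapped those without it for these 3 genes. This did not extend to IM1, which had neither RA nor Activin A. IM1 overlapped IM5 in Klf2 (6.26 to 8.12 TPM) and was above IM2 and IM5 in Klf5 (23.0 to 29.7 TPM). In Nanog (2.58 to 2.82 TPM) IM1 was below both. Within the pairs, Klf4 was higher with Activin A by 0.80 ± 0.10 and 0.82 ± 0.10 and Esrrb by 0.73 ± 0.14 and 0.73 ± 0.13. Both were past the p threshold and under the fold minimum, while Tfcp2l1 was lower by 0.43 ± 0.10 and 0.44 ± 0.10. Zfp42, Prdm14 and Dppa3 were under the count minimum in IM2 to IM5, so the rule could not call them. The largest difference without CHIR99021, 2.40, was that of Prdm14, at means of 14.2 against 2.65 normalized counts. By adjusted p alone, 7 members were higher and 1 lower without CHIR99021, and 6 higher and 1 lower with it. The interaction of Activin A with CHIR99021 called no member (0.0336% of all genes), with adjusted p of at least 0.655 for each of the 9.

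CHIR99021 at this dose called no member. In IM4 against IM3 the 9 log2 differences had a median of 0.24 and the lowest adjusted p was 0.2 (0.101% of all genes were called), and in IM5 against IM2 the median was 0.17 and the lowest adjusted p 0.056 (0.235% of all genes). For Esrrb, a gene that WNT signalling is known to derepress, the differences were 0.24 ± 0.16 and 0.24 ± 0.12. At an unadjusted p under 0.05 there was 1 member (Klf2, lower with CHIR99021) in the first pair, 3 in the second (Klf2, Klf5 and Nanog) and 0 for the interaction, and DESeq2 called 0 in each. A p that misses the threshold does not show that the media acted alike: the 95% interval of the Esrrb difference ran from -0.06 to 0.55 between IM4 and IM3.

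**Figure D5:**
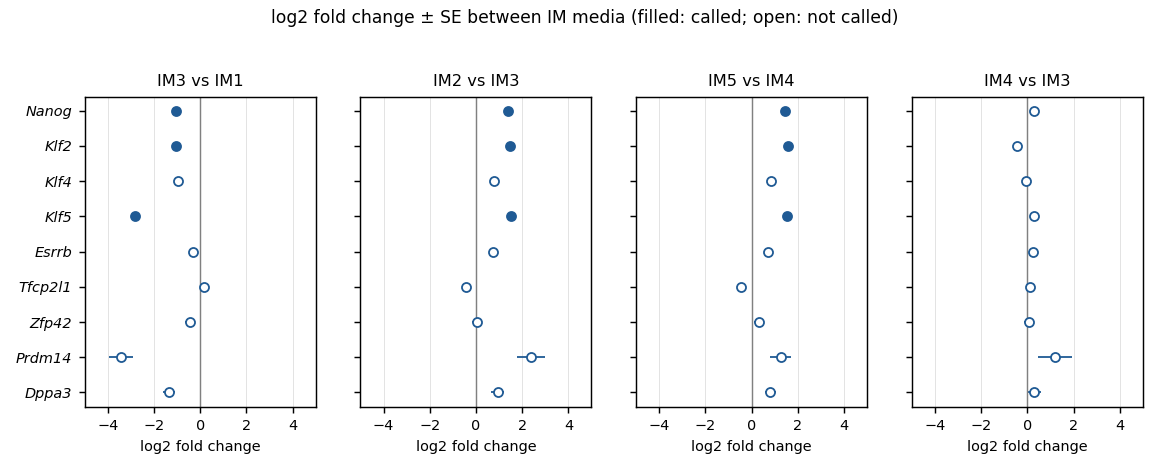
log2 fold change with SE of the 9 members between IM media that differ in RA (IM3 vs IM1), Activin A (IM2 vs IM3 and, with CHIR99021, IM5 vs IM4) and CHIR99021 (IM4 vs IM3). Filled points were called: Klf5 is lower with RA (-2.83) and Nanog, Klf2 and Klf5 are higher with Activin A in both pairs, while no point is filled for CHIR99021.

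Pou5f1 and Sox2, which are core pluripotency factors outside the naive set, also rose with Activin A. Of the 4 core factors counted (Pou5f1, Sox2, Sall4 and Lin28a), 2 rose from IM3 to IM2 and from IM4 to IM5 and none fell: Sox2 by 3.23 ± 0.12 and 2.92 ± 0.11, and Pou5f1 by 1.92 ± 0.16 and 2.22 ± 0.15 on the log2 scale. Pou5f1 was at 28.5 to 40.0 TPM in the media with Activin A and at 6.95 to 9.67 TPM in IM3 and IM4. IM1, which had no RA and no Activin A, held 37.3 to 40.5 TPM of Pou5f1. Sox2 differed there, at 2.89 to 3.56 TPM in IM1 against 11.95 to 13.44 TPM in IM2 and 10.55 to 11.39 TPM in IM5. At the first step the core factors differed from the naive ones: from ESC to EpiSC 1 of 4 fell (Sox2, by 1.44 ± 0.07) and Pou5f1 stayed at 1604 to 1704 TPM beside 1569 to 1652 TPM in ESC.

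Endothelial markers moved across the same media. Of 10 such markers, 8 rose from M to IM1 and none fell, 8 fell from IM1 to IM3 and none rose, and 4 rose and none fell from IM3 to IM2. Their summed TPM was 59.6 to 71.0 in M, 203 to 219 in IM1, 119 to 130 in IM2, 85.1 to 98.2 in IM3, 90.2 to 104 in IM4 and 121 to 127 in IM5, and none of the 10 was at 0 throughout a group. Epithelial and mesothelial markers summed to 1891 to 2040 TPM in M, 3188 to 3604 TPM in IM1 and 2147 to 2943 TPM in the other 4 media. The keratins Krt8, Krt18 and Krt19 made most of these sums, at means of 1692, 1139 and 433 TPM in IM1, and the markers did not all move one way. From M to IM1 3 of 10 rose and 1 fell, and from IM1 to IM3 4 rose and 2 fell. Among those that rose with RA were the mesothelial genes Upk3b, from 1.18 to 3.38 TPM in IM1 to 204 to 224 TPM in IM3, and Bnc1, from a mean of 5.64 to one of 58.3 TPM, while the mean of the epithelial cadherin Cdh1 was 43.2 and then 14.7 TPM. Fibroblast markers, 6 extracellular matrix and stromal genes, summed to 62.9 to 70.2 TPM in M and over 1000 TPM (1020 to 1927) in the IM media. The part of these cell types in the levels of Klf2, Klf4, Klf5 and Tfcp2l1 was not tested.

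From IM3 to iSLC 4 of 9 members were called, 1 higher and 3 lower, where 19.2% of all genes were called. Klf2 was at 20.0, 22.7 and 19.6 TPM in iSLC, above every IM library and 32.8% of its ESC level. Its log2 rise over IM3 was 2.49 ± 0.14 (adjusted p = 4.42e-15), and 1.81 with the GC offset. The iSLC medium held Activin A and IM3 did not, and its part in this rise was not tested. Tfcp2l1 and Klf5 fell, by 3.41 and by 1.28 ± 0.17 (adjusted p = 1.24e-07). Esrrb was called lower, by 1.33 ± 0.19 (adjusted p = 4.2e-07), although its TPM overlapped between the groups and its mean normalized count in IM3, 102, was close to the minimum. The call was lost with an offset for gene length (-0.99, under the fold minimum). It was also lost with DESeq2 (-1.32), in a fit of those groups alone (-1.35) and without IM3 replicate 2 (-1.12), where fold change and adjusted p still passed and the count minimum was not met. Zfp42 and Dppa3 were lower with adjusted p of 1.01e-05 and 2.56e-05, at counts under the minimum. Nanog and Klf4 were not called, at 0.35 ± 0.16 and -0.13 ± 0.10.

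Most endothelial and epithelial markers fell at this step while Klf2 rose. Of the 10 endothelial markers 8 fell and 1 rose, to a sum of 29.6 to 32.9 TPM in iSLC. The 1 that rose was Emcn, from a mean of 2.33 TPM in IM3 to 25.0 TPM in iSLC, where it made most of that sum. Among those that fell, the endothelial cadherin Cdh5 had a median of 1.63 TPM in iSLC against 10.8 TPM in IM3. Of the 10 epithelial and mesothelial markers 8 fell and none rose, to 99.3 to 112 TPM. Fibroblast markers summed to 5979 to 6079 TPM, with 4 of 6 called higher than in IM3 and none lower, and the part of these cell types in the results was not tested.

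Set against ESC, all 9 members were lower in IM3 (22.4% of all genes were called) and all 9 in iSLC (32.0% of all genes). In IM3 the log2 differences ran from -2.26 ± 0.10 for Klf4 to -8.77 ± 0.36 for Prdm14, with Nanog at -8.24 ± 0.12 and Esrrb at -7.77 ± 0.11. In iSLC they ran from -1.81 ± 0.11 for Klf2 to -9.49 ± 0.36 for Prdm14, with Esrrb at -9.10 ± 0.12, Zfp42 at -8.07 ± 0.16 and Dppa3 at -8.35 ± 0.23. With the GC offset the iSLC values were -2.53 for Klf2 and -2.70 for Klf4. The values for Prdm14 rest on 5 or 6 counts in the lower group and depend on the fit. The ESC libraries are shared by both comparisons.

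The other genes of the naive network were counted from a list of 18. From ESC to EpiSC 14 of 18 fell and none rose, with a median log2 fold change of -2.09 beside 0.00 over all genes. Tbx3, a T-box factor, fell by 4.71 ± 0.09, the methylcytosine oxidase Tet2 by 4.31 ± 0.11, the nuclear receptor Nr0b1 by 4.22 ± 0.15 and the secreted protein Spp1 by 3.83 ± 0.14. From EpiSC to M 14 of 18 fell and 2 rose, at a median of -3.98, led by Tcl1, Utf1, Nr0b1 and Dppa2. From M to the IM media more of the 18 fell than rose: 1 rose and 5 fell in IM1, 3 rose and 6 fell in IM2, 3 rose and 7 fell in IM3 and likewise in IM4, and 3 rose and 5 fell in IM5. The medians ran from -1.48 in IM3 to -0.54 in IM2, where 14.8 to 16.5% of all genes were called. Spp1 rose over M by 3.81 ± 0.19 in IM1, 4.78 ± 0.18 in IM2 and 4.79 ± 0.18 in IM5. Spp1 was also among the genes of this list that rose with Activin A, by 3.09 ± 0.16 without CHIR99021 and 3.02 ± 0.15 with it. From IM3 to iSLC 4 of 18 rose and 3 fell. These included Nr0b1 (4.81 ± 0.30), a gene that also acts in the gonad and adrenal with Nr5a1, and the adhesion molecule Jam2 (4.30 ± 0.12). Nr0b1 was at 2.06 to 3.13 TPM in iSLC, against 42.4 to 48.5 TPM in ESC.

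Formative and primed epiblast genes, a list of 12, moved opposite to 8 of the 9 members at the first step. From ESC to EpiSC 7 of 12 rose and none fell, with a median of 1.50: Fgf5 by 5.24 ± 0.15, the homeodomain factor Otx2 by 3.19 ± 0.16, Pou3f1 by 2.19 ± 0.11 and Sox3 by 2.07 ± 0.17. From EpiSC to M 8 of 12 fell and none rose, at a median of -1.75. Among these, Foxd3 fell by 6.68 ± 0.19 and Otx2 by 3.91 ± 0.16. At M the naive and the formative lists were therefore both mostly lower than in EpiSC. Sox3, a SOX family factor of the epiblast and neural lineage, also differed between the media: it rose by 4.83 ± 0.27 from IM3 to IM2 and by 4.60 ± 0.22 from IM4 to IM5, and fell by 6.41 ± 0.25 from IM1 to IM3.

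Of the other 14 Klf genes, 4 were called lower and none higher from ESC to EpiSC (Klf12 by 1.51 ± 0.17, Klf11 by 1.43 ± 0.06, Klf3 by 1.33 ± 0.06 and Klf8 by 1.07 ± 0.08). In that comparison 8.07% of all genes were called. From M to IM1, 2 rose and 3 fell, where 15.7% of all genes were called. Klf14 rose by 5.27 ± 0.18, from 0.24 to 0.36 TPM in M to 9.81 to 15.1 TPM in IM1, and fell by 3.31 ± 0.15 from IM1 to IM3. None of the 14 was called for Activin A, where 3.80 to 4.09% of all genes were called, so few calls among 14 genes would be looked for. From IM3 to iSLC 5 of 14 rose and 1 fell, where 19.2% of all genes were called. Among them were Klf12 (2.69 ± 0.19), Klf9 (2.66 ± 0.12) and Klf15 (1.51 ± 0.13), all higher.

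The genes whose levels were most like each member were sought by Pearson's r of log2(TPM + 1) over the 27 libraries, among 14662 genes. The libraries are 3 each of 9 groups, so that a few stage differences set these values. The order also depended on the constant added to TPM. With a smaller constant, the first gene named below stayed first for every member but Zfp42 and Prdm14. Some others dropped far, such as Zfp459 to rank 59 for Esrrb and Foxn4 to rank 53 for Prdm14. For Esrrb the closest were Dhx16 (r = 0.996), Arl14epl (0.993) and Zfp459 (0.992), and for Zfp42 they were Zfp459 (0.995), Gtsf1l (0.995) and Gm10324 (0.994). For Nanog they were Platr14 (0.990), Platr22 (0.990) and Gm13147 (0.989), for Prdm14 Lrrc34 (0.993), Crisp1 (0.990) and Foxn4 (0.987), and for Dppa3 Tmem8 (0.993), Ccdc88c (0.990) and Gm38312 (0.989). The members with a return in the IM media had weaker companions. For Klf5 these were Cd9 (0.979), Atp6v1c1 (0.940) and Spata2 (0.938), for Tfcp2l1 Mreg (0.982), Tubb2b (0.974) and Mcl1 (0.952), for Klf2 Chchd10 (0.967), Tbc1d2 (0.960) and Tspan17 (0.947), and for Klf4 Pvr (0.926), Atf6 (0.917) and Slc7a1 (0.914).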

How the data were processed

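Per the labels and the study's methods, the authors made TruSeq libraries, trimmed reads with Cutadapt 1.9.1, aligned them with STAR 2.5.2a to GRCm38 with Ensembl transcripts and quantified genes with RSEM 1.3.0. Strand use is not given in the sources used here. The deposited expected counts are RSEM estimates, the deposited TPM values are scaled to the same total in every library, and the deposited FPKM values served as an alternative scale for levels. Expected counts were rounded to whole numbers and fitted with edgeR 4.0.16 (TMM, filterByExpr, quasi-likelihood test, 1 coefficient per group, all 27 libraries, Benjamini-Hochberg adjustment over 20839 genes) in R 4.3.3. DESeq2 1.42.0 was an alternative. On simulated counts for EpiSC against ESC (19788 genes, 200 changed), edgeR called 100% of changes of the smaller size and 99% of the larger, and 0 unchanged genes. Named genes were the 9 members, up to 4 called genes per list with the largest change, and the 3 genes with the highest r to each member. The members and lists were chosen with earlier results of these data known. Replicate numbers paired the libraries by the rule used (every pair over 0.1) in IM4 against IM3 alone. There, deviations from the group mean correlated at a mean of 0.193 between libraries of the same number and at -0.097 otherwise. Over all groups these means were 0.019 and -0.009. Deviations from a group mean sum to 0, so the second mean is in each case nearly fixed by the first. No 2 libraries of a group agreed within sampling noise. Alternatives covered the scaling, filters, GC and length offsets, the replicate block and each library left out.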

Additional observations from a re-analysis of the deposited data

How the results depend on the processing

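Of 1051 values recomputed under settings other than leaving out a library, 1027 kept their direction and side of the threshold, 12 lost and 12 gained a call and none changed sign; of 702 with a library left out, 8 lost and 1 gained a call and 5 changed sign. Where no cause is named, the cause of a lost call was not tested. The sign changes concerned uncalled differences, with ranges over the libraries left out of -0.49 to 0.01 (log2, 0.00939 at the upper end) for Prdm14 in IM1 against M, -0.25 to 0.01 (0.0133) for Klf2 in IM4 against M, and -0.20 to 0.50 for Zfp42 in IM2 against IM3. For RA (IM3 against IM1) the members called numbered 5 without the count minimum, which adds Prdm14 and Dppa3 by construction, and 1 to 4 with a library left out (1 without IM3 replicate 3). Esrrb, called lower in iSLC than in IM3, was not called with the length offset (-0.99), nor with the DESeq2 test (-1.32) or only the groups compared (-1.35), where the count minimum alone was not met. The replicate block changed no call of a member: 9 were called in EpiSC against ESC and 3 for RA, as without it. Without the count minimum the calls over all genes were 3826 in EpiSC against ESC, 5842 in M against EpiSC, 5818, 5992, 5402, 5374 and 5884 in IM1 to IM5 against M, 2497 for RA, 1509 and 1667 for Activin A without and with CHIR99021, 36 and 101 for CHIR99021 without and with Activin A, 7015 in iSLC against IM3, and 8227 and 11341 in IM3 and iSLC against ESC. For CHIR99021 without Activin A the calls were 12 with only the groups compared and 12 to 25 with a library left out (12 without IM3 replicate 1). For the interaction they were 3 with the length offset or only the groups compared, 13 without the low-count filter, 12 with DESeq2 and 2 to 6 with a library left out (2 without IM3 replicate 2), beside 7 in the main count. Levels as a percent of ESC were 0.759 to 1.03 times their TPM value in FPKM and 0.674 to 1.04 times in normalized counts. Depth limits Prdm14, Dppa3 and Zfp42 after M, at counts under the minimum.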

Other observations

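LIF and STAT3 signalling genes, a list of 10 that act upstream of Klf4 and Tfcp2l1, were counted in the same comparisons. From ESC to EpiSC 4 of 10 fell and none rose, as 8 of the 9 members did, at a median of -0.69 and with 8.07% of all genes called: the feedback inhibitor Socs3 by 2.13 ± 0.10 on the log2 scale (SE, n = 3 libraries per group, edgeR), Stat3 by 1.33 ± 0.05, the receptor Lifr (-1.303 ± 0.072) and its partner Il6st by 1.08 ± 0.05. From EpiSC to M 5 rose and 1 fell, among them Lifr, higher by 2.49 ± 0.07, and the kinase gene Jak2, higher by 2.35 ± 0.08, while Lif itself fell by 1.64 ± 0.09. Lif then rose from M to each IM medium, by 1.56 ± 0.09 in IM1 to 1.79 ± 0.09 in IM2. In iSLC Stat3 was at 115 to 118 TPM against 26.5 to 29.2 TPM in ESC, and the list summed to 508 to 514 TPM against 299 to 328 TPM in ESC. Against ESC, 5 of 10 genes were called higher in iSLC and 1 (Pim1) lower, where all 9 members were lower and 32.0% of all genes were called. The difference between the list and the members was not tested.

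Regulators of exit from the naive state, a list of 10, had 1 of 10 called lower from ESC to EpiSC (Rbpj, by 1.42 ± 0.06) and none higher, a share close to the 8.07% of all genes called. From EpiSC to M the list gave 2 lower genes and none higher, where 14.5% of all genes were called: Tfe3, by 1.35 ± 0.04, and Tcf7l1, which encodes the repressor of Esrrb, by 1.12 ± 0.09. None of the 10 was called for RA, Activin A or CHIR99021, where 6.34%, 3.80 to 4.09% and 0.101 to 0.235% of all genes were called. Their sum stayed between 976 and 1398 TPM in all 27 libraries.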
